A study of Mus musculus with 18 samples.

Results

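The 9 genes described here encode proteins that restrain or report the Ras-ERK cascade: the Sprouty genes Spry1, Spry2 and Spry4, the SPRED genes Spred1 and Spred2, the Ras GTPase-activating protein gene Rasa2, and 3 genes whose transcripts follow growth factor or antigen receptor signals, Ier2, Ier3 and Etv5. They were taken as a named list, drawn up with earlier results of these data known, and are 9 of the 37991 genes counted. All 9 were among the 17240 genes that passed the filter on low counts and were tested. Across the 6 groups they behaved in different ways. Spry1 and Ier3 were the members already higher in resting tolerized cells, where 8.42% of all tested genes were higher. Spred2, Ier2 and Rasa2 were lower there, as were 12% of all tested genes. With scores of erythroid and myeloid markers in the fit, 0 of the 9 passed in this resting comparison. Neutrophil marker counts did not overlap between these 2 groups, so the lost calls alone are no measure of a weaker difference. Peptide antigen (Ag) raised 8 of the 9 in either cell state, beside 32.1% of all tested genes in naive and 29.9% in tolerized cells. After treatment with PMA and calcium ionophore (PI), Spry1, Spred1, Spred2 and Rasa2 were higher in tolerized than in naive cells, as were 18.2% of all tested genes.

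In T cells, engagement of the T cell receptor (TCR) activates phospholipase C, and the diacylglycerol it makes recruits RasGRP and, with SOS, loads Ras with GTP. Active Ras engages RAF kinases, which signal through MEK to ERK. ERK activity in turn induces genes whose products dampen the route: Sprouty proteins bind adaptors such as GRB2 and CBL, SPRED proteins hold neurofibromin (NF1) at the membrane where it switches Ras off, and RASA2 is itself an activator of GTP hydrolysis by Ras. PMA stands in for diacylglycerol and an ionophore for the calcium signal, so PI enters the route below the TCR.

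RNA-seq was performed on CD4+ T cells enriched magnetically from spleens of Tg4 mice, which carry a transgenic TCR for the N-terminal peptide of myelin basic protein, and each of the 6 groups held 3 libraries. Naive (N) cells came from mice given PBS, and tolerized (T) cells from mice given repeated, escalating subcutaneous doses of the 4Y form of that peptide. N0 and T0 cells were taken after a last injection of PBS, NAg and TAg cells 2 h after a last injection of 4Y peptide in vivo, and NPI and TPI cells after 2 h of culture with PMA and the calcium ionophore A23187. Every mouse carried the TCR transgene, so no group represents a normal T cell repertoire. Enrichment was not a sort, and the makeup of CD4+ subsets in each group was not tested. In such bulk samples fewer cells of a type and less RNA per cell cannot be told apart. Nothing in the labels says whether a library came from 1 mouse or from pooled mice, so p-values measure the spread between these libraries.

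The positions of the genes, in mouse build NCBIM37, were chr3:37538869-37543520 (plus strand) for Spry1, chr14:106291166-106296036 (minus) for Spry2 and chr18:38745922-38760922 (minus) for Spry4. Spred1 lay at chr2:116947110-117008015 (plus), Spred2 at chr11:19824378-19924029 (plus) and Rasa2 at chr9:96439719-96532036 (minus). Etv5 lay at chr16:22381382-22439792 (minus), Ier2 at chr8:87185230-87186751 (minus, a single exon) and Ier3 at chr17:35958629-35959868 (plus). All 9 are annotated as protein coding, and reads were counted over their exons. None shared an exon base with another annotated gene; Rasa2 holds a 5S rRNA gene within an intron.

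Total counts ran from 10758571 to 24119489 per library, and reads of the 9 genes from 3864 to 104286, or 0.0354% to 0.454% of a library. Within T0, replicates 1 and 2 differed less from each other (chi-square per degree of freedom over genes 3.04) than either did from replicate 3 (12.7 and 11.9), and TAg replicate 3 likewise stood apart from the others of its group (10.1 and 12.4 against 4.51). Without T0 replicate 3 no call of the 9 genes was lost and Etv5 was gained in T0 over N0, and without TAg replicate 3 the call of Rasa2 in TPI over TAg was lost. All 7 T cell markers were detected in every library. The CD8 markers Cd8a and Cd8b1 had 6 to 46 and 28 to 217 reads, and their summed normalized count was lower without overlap in T0 than N0 (81.5 to 126 against 210.2 to 259.5) and in TPI than NPI (52.5 to 70.4 against 170.4 to 197), with 1 and 2 of the 2 genes passing as lower. Neutrophil markers moved with tolerization: 8 of the 9 passed the test as higher in T0 than N0, 9 in TAg than NAg and 6 in TPI than NPI. Their summed normalized count was 73.4 to 179 in N0 and 1679.9 to 2976 in T0, 132 to 364 in NAg and 2164 to 3981 in TAg, and 62.8 to 172 in NPI and 395 to 670.1 in TPI. Among these markers, Ltf and Retnlg had 0 reads in 4 libraries each and Ly6g in 8. The macrophage sum was also higher without overlap in T0 than N0 (1244 to 1627 against 451 to 687) and in TPI than NPI (481 to 568 against 222 to 301). By gene, 1 of the 8 passed as higher and 1 as lower in T0 over N0, and 1 as higher and 0 as lower in TPI over NPI. In TAg and NAg it overlapped, with 1 gene higher and 6 lower. Erythroid markers passed as higher for 1 of 7 genes in T0 over N0, 1 of 7 in TAg over NAg and 0 in TPI over NPI. Their sum reached 1909.7 in 1 T0 library, but the median of T0 was 221 and the lowest 186, against at most 182 in N0. After PI the erythroid sums did not overlap either (195 to 327 in TPI against 12.7 to 56.2 in NPI), while after Ag they did. Sex was not balanced either: reads of Y-linked genes numbered 5111 or more in 9 libraries, namely all NPI and TPI libraries, T0 replicates 1 and 2 and TAg replicate 3, and 18 or fewer in the other 9. The neutrophil sums did not overlap between tolerized and naive cells at rest, after Ag or after PI, so in all 3 comparisons such cells and the cell state cannot be fully told apart. Results whose calls moved with these features are given below with and without them.

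Promoter sequence was available for 7 of the 9 genes, Spry4 and Ier2 being the exceptions. The 250 bases before the annotated start were searched on both strands for the CArG box bound by SRF, the AP-1 site TGANTCA, the CRE core TGACG, the ETS site ACTTCCG, the NFAT site GGAAAA and the EGR site GCGNGGGCG, which are sites of factors that ERK or calcium signals act on. Shown are 3 of them, 1 for the gene with the widest range of levels (Spry1), 1 for its more evenly induced relative (Spry2) and 1 for a gene whose order between cell states turned round with the stimulus (Spred2). Each reads 5′ to 3′ on the gene's own strand in RefSeq build GRCm38.p6, ends at the base before the start, and has motif matches in capitals.
Spry1, chr3:37639697-37639946, plus strand: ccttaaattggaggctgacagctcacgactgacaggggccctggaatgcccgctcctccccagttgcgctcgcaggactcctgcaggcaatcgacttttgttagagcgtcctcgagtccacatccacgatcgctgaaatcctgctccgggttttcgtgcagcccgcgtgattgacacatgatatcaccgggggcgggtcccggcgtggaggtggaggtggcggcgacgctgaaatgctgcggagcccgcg
Spry2, chr14:105896820-105897069, minus strand: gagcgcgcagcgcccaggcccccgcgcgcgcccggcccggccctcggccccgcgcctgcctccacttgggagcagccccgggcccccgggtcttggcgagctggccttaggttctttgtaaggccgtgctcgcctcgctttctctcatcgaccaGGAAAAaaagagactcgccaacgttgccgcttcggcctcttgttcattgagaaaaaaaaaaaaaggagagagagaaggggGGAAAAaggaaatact
Spred2, chr11:19924192-19924441, plus strand: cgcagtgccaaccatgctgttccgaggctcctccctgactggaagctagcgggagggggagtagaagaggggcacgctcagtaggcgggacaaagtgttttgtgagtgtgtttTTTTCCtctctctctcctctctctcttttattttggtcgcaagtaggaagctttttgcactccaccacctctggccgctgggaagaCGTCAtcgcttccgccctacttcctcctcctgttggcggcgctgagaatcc

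Spry1 held no match to any of the 6 motifs, and neither did Spred1 or Ier3. Spry2 held 2 NFAT matches, starting 96 and 16 bases before the start. Spred2 held 1 NFAT match at 137 bases and 1 CRE core at 51 bases, each on the opposite strand. Rasa2 had 1 NFAT match at 206 bases, and the second of the Etv5 promoters had 1 at 59 bases. Among all 32851 promoters in the table, 20.4% held an NFAT match and 17.8% a CRE core, while 1.47% held a CArG box, 6.75% an AP-1 site, 4.92% an ETS site and 4.7% an EGR site. These windows describe letters only and say nothing of whether a factor binds there or farther away.

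Spry1, which encodes a Sprouty protein induced in activated T cells, covered the widest range of the 9. Its normalized read counts in resting naive cells were 46.6, 12.5 and 32.7, against 209.6, 252 and 555 in resting tolerized cells, and the 2 groups did not overlap. After Ag they were 6594, 6555 and 6966 in naive and 7276, 6730.3 and 7969.8 in tolerized cells, ranges that overlapped. After PI they were 5568, 5438 and 5749 in naive cells but 62086, 50200.1 and 47958 in tolerized cells. Thus naive cells reached much the same level with either stimulus, whereas every TPI library stood above every other library of the series.

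Spry2 and Spry4, the other Sprouty genes counted, were expressed at low levels and responded more to PI than to Ag. Spry2 read 53.5, 39.7 and 30.7 in N0, 86.3, 56.4 and 95.7 in NAg and 286, 471 and 301 in NPI. In tolerized cells it read 61.0, 94.5 and 73.8 at rest, 161, 134 and 155 after Ag and 301, 407 and 509.6 after PI. Spry4 was close to absent at rest, with 1.98, 1.04 and 2.97 normalized counts in N0 and 2.65, 0.883 and 4.80 in T0. It rose to 14.4, 19.97 and 16.5 in NAg and 19.8, 14.3 and 26.6 in TAg, and to 181, 199 and 180.0 in NPI and 144, 129.5 and 140.1 in TPI. Every stimulated library of Spry4 stood above every resting one.

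Spred1 and Spred2 encode the SPRED proteins that bring NF1 to Ras. Spred1 counts were 300.1, 283 and 297 in N0, 2002, 1776 and 1746 in NAg but only 478, 644 and 547 in NPI. In tolerized cells they were 254, 266 and 176 at rest, 1339, 1426 and 1712 after Ag and 1377, 1357 and 1246 after PI. So the Ag and PI libraries overlapped in tolerized cells, while in naive cells the PI libraries lay far under the Ag libraries. Spred2 counts were 466, 471 and 454 in N0, 1058, 1223 and 1126 in NAg and 1205, 1284 and 1208 in NPI. The tolerized counts were 383, 378 and 301 at rest, 519, 531 and 545 after Ag and 2002, 1789 and 1731 after PI. Tolerized libraries were thus under the naive ones after Ag and above them after PI, with no overlap in either case.

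Rasa2 encodes a GTPase-activating protein that turns Ras off. Its counts were 1884, 1844 and 1913 in N0, 3956, 4613 and 4271 in NAg and 2089.7, 2715 and 2462 in NPI. Tolerized cells gave 1496, 1621 and 1475 at rest, 2622, 2509.7 and 2609 after Ag and 2829, 3128 and 2906 after PI. Its order between the cell states turned round in the same way as that of Spred2.

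Ier2, Ier3 and Etv5 complete the list. Ier2, an immediate early gene for a nuclear protein, was well expressed at rest, with 1199, 1327 and 1617 counts in N0 and 994, 977 and 1234 in T0. It read 3597, 3570.2 and 3677 in NAg, 2242, 2277 and 2793 in TAg, 17161, 14609 and 15819.8 in NPI and 14941, 12681 and 12958 in TPI. Ier3, an early response gene for a protein that can prolong ERK phosphorylation, had 8.92, 5.22 and 4.96 counts in N0 and 18.6, 22.1 and 14.4 in T0. It stood at 123, 94.0 and 112 in NAg, 129, 122 and 172 in TAg, 412, 484 and 458 in NPI and 472, 491 and 483 in TPI. Etv5, an ETS transcription factor gene that FGF and ERK signals induce in many tissues, moved little, between 36.3 and 101 in all 18 libraries.

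**Figure D1:**
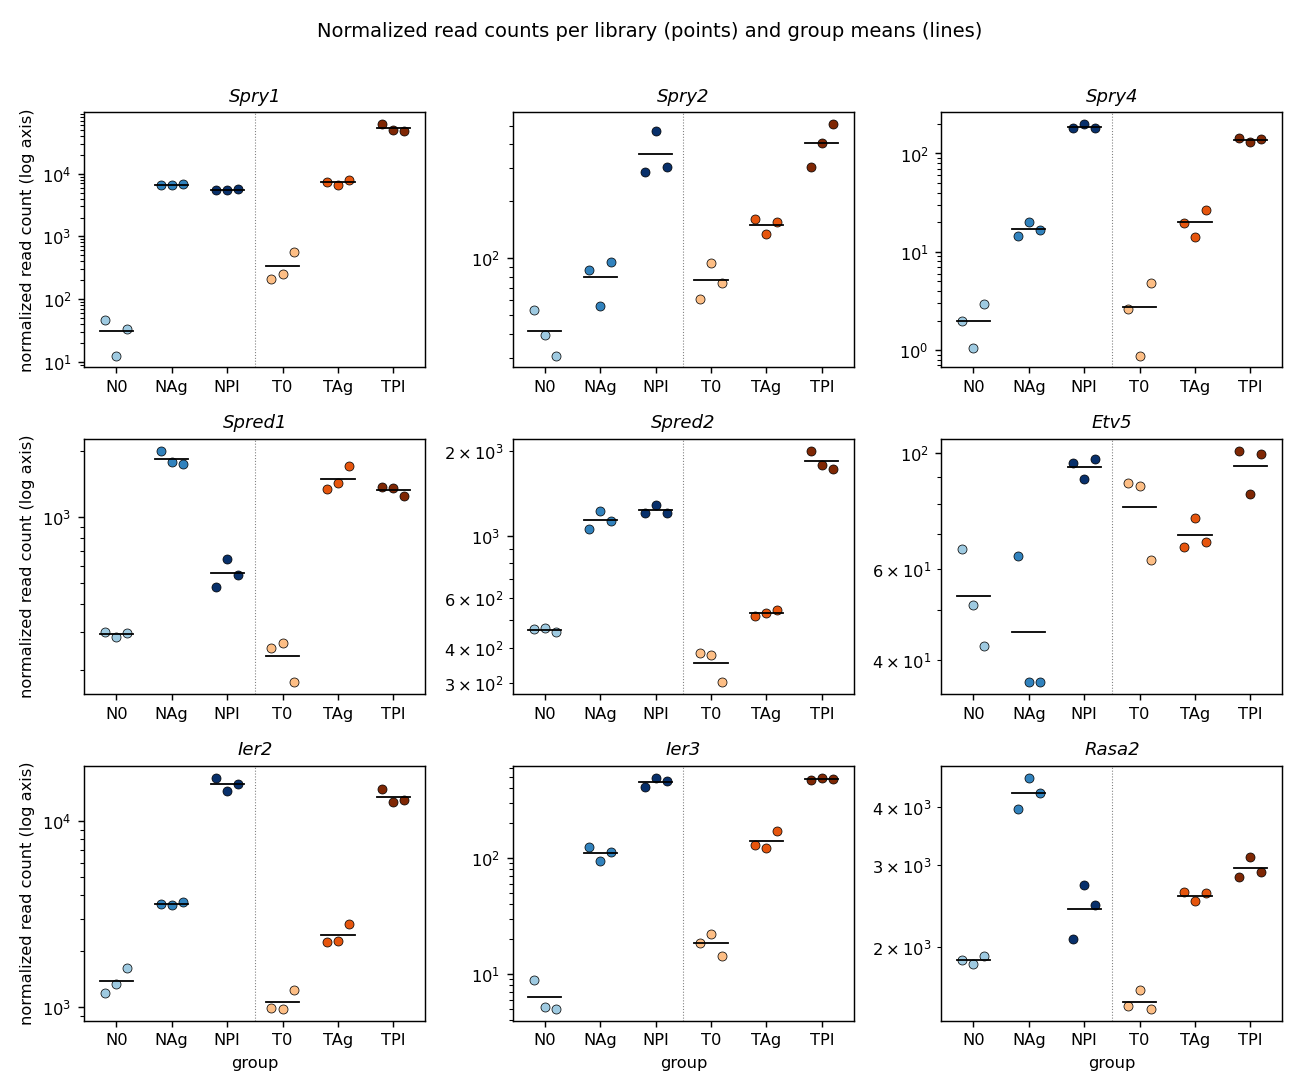
Normalized read counts of the 9 genes (y axis, log scale, its range differing between panels) in each of the 18 libraries, by group (x axis); points are libraries, lines are means of 3, and the dotted line parts naive from tolerized groups. The 3 TPI libraries of Spry1 lie between 47958 and 62086, above the other 15, while the Etv5 panel spans only 36.3 to 101.

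Levels can be set against each other between genes only per length of exon, as RPKM (reads scaled to exon length in kilobases and to library size, here from the normalized counts and the summed exon length). Ier2 was the highest member in N0 at 66.4 ± 10.3 RPKM (SD, n = 3), in T0 at 51.4 ± 6.92 and in NPI at 763 ± 61.4. In NAg it stood at 174 ± 2.67 RPKM and its libraries overlapped those of Spry1 at 169 ± 5.71. Spry1 took the highest place in TAg at 185 ± 15.6 RPKM and in TPI at 1346 ± 191, against 117 ± 14.8 and 651 ± 59.3 for Ier2, with no overlap. In N0 the Spry1 level was 0.771 ± 0.431 RPKM, where its libraries overlapped those of Spry2, Etv5 and Ier3. In T0 it was 8.54 ± 4.75 RPKM, overlapping Rasa2 and Spred2. Rasa2, at 15.5 ± 0.287 RPKM in N0 and 35.3 ± 2.71 in NAg, came next to Ier2 or to Ier2 and Spry1 in these groups. Spry4 was the lowest of the 9 at 0.0319 ± 0.0154 RPKM in N0, 0.271 ± 0.0450 in NAg, 0.0443 ± 0.0313 in T0 and 0.323 ± 0.0986 in TAg. After PI the lowest was Etv5, at 1.68 ± 0.0800 RPKM in NPI and 1.69 ± 0.174 in TPI, just under Spry4 at 2.98 ± 0.171 and 2.20 ± 0.118.

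**Figure D2:**
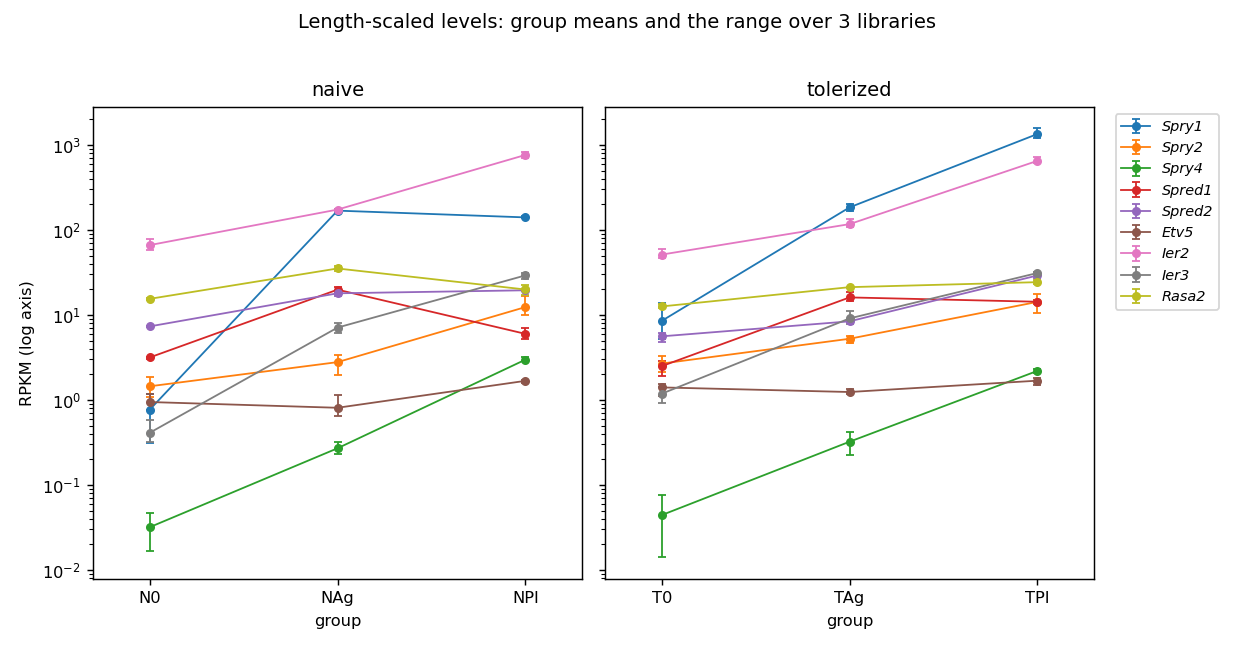
RPKM of each gene (y axis, log scale) in the naive (left) and tolerized (right) groups; points are means of 3 libraries, bars their range, and lines only join the points of a gene. Spry1 climbs from 0.771 in N0 to 169 in NAg and 141 in NPI, and from 8.54 in T0 to 185 in TAg and 1346 in TPI.

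The first question was how each cell state answered Ag in vivo. In naive cells Ag raised 8 of the 9 genes and lowered 0, where 32.1% of all 17240 tested genes passed as higher and 33.4% as lower (edgeR quasi-likelihood test, Benjamini-Hochberg adjusted p under 0.05). For those 8 every NAg library was above every N0 library, as for 33.5% of all tested genes, and the median log2 fold change of the 9 was 1.39 against 0 for all tested genes. Spry1 changed most, by 7.76 ± 0.41 (SE) on the log2 scale or 216-fold, with adjusted p = 7.49e-10. Ier3 rose 16.9-fold (log2 4.08 ± 0.23, adjusted p = 7.13e-14) and Spred1 6.27-fold (2.65 ± 0.13, 2.83e-13). More modest were Ier2 (2.62-fold, 5.1e-10), Spred2 (2.45-fold, 1.23e-12) and Rasa2 (2.28-fold, 2.02e-12). Spry4 had 44 reads in NAg against 6 in N0, a ratio of 8.41 with a 95% counting interval of 3.57 to 24.1, and passed with adjusted p = 1.18e-06. For Spry2 the rise was 1.92-fold (adjusted p = 0.0138), but the call was lost without N0 replicate 2 or 3 or NAg replicate 1 or 3 (adjusted p = 0.0537 to 0.0886). It was also lost when scores of erythroid and myeloid markers entered the fit (0.115). Etv5 gave −0.23 ± 0.22 (adjusted p = 0.377, 95% interval −0.69 to 0.23), and passed as lower only without NAg replicate 1 (−0.55, 0.0391).

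In tolerized cells Ag raised 8 genes, again all but Etv5, and lowered 0, beside 29.9% of all tested genes higher and 29.8% lower. The median of the 9 was 1.19 on the log2 scale against −0.05 for all genes tested. Spry1 rose 21.7-fold (log2 4.44 ± 0.32, adjusted p = 2.82e-08), Ier3 7.62-fold (2.93 ± 0.18, 6.09e-13) and Spred1 6.42-fold (2.68 ± 0.13, 4.48e-13). For Spry4, 56 reads in TAg against 9 in T0 gave a ratio of 7.55, with a counting interval of 3.71 to 17.4. Ier2 rose 2.28-fold, Spry2 1.96-fold, Rasa2 1.69-fold and Spred2 by 0.58 ± 0.09 on the log2 scale, with adjusted p from 8.71e-09 for Ier2 to 0.00474 for Spry2. Etv5 again did not pass (−0.18 ± 0.20, adjusted p = 0.457). Spry2 lost the call without the 3 T0 and TAg libraries that had Y-linked reads (0.96, adjusted p = 0.112), a fit that left T0 with 1 library.

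PI was used to reach the inducible genes without the TCR. In naive cells it raised all 9 genes, beside 28.6% of all tested genes higher and 32.7% lower. Every NPI library was above every N0 library for all 9, as for 31.2% of all tested genes, and the median log2 fold change was 3.09 against −0.06. Spry1 rose 180.3-fold (log2 7.49 ± 0.41, adjusted p = 1.96e-09), Ier3 69.4-fold (6.12 ± 0.21, 1.14e-17) and Ier2 11.5-fold (3.52 ± 0.12, 8.81e-16). Spry4 stood at 92.2 times its N0 level by reads (counting interval 42.1 to 252). Spry2 rose 8.49-fold, Spred2 2.66-fold, Spred1 1.89-fold and Etv5 1.77-fold (adjusted p = 0.00114 for Etv5). Rasa2 changed least, 1.29-fold (0.37 ± 0.08, adjusted p = 0.000345), and lost the call with the marker scores as covariates (0.35, adjusted p = 0.0901). All NPI libraries and no N0 library had Y-linked reads. With Y-linked expression as a covariate 8 of the 9 still passed, the exception being Etv5 (0.62, adjusted p = 0.0948). Only T0 and TAg held libraries of both kinds, and there replicate 3 differed in Y-linked reads from replicates 1 and 2. The covariate rests mainly on those groups, so it cannot part sex from PI here. The 2 h of culture that only PI cells had cannot be told apart from PI itself.

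In tolerized cells PI raised 8 of the 9, with Etv5 at 0.27 ± 0.19 (adjusted p = 0.228), and 0 were lower. Of all tested genes 32% were higher and 36.3% lower. Spry1 rose 158-fold (log2 7.31 ± 0.36, adjusted p = 3.97e-10), Ier3 26.0-fold (4.70 ± 0.17, 2.36e-17) and Ier2 12.7-fold (3.66 ± 0.12, 2.79e-16). Next came Spred1 (5.70-fold), Spry2 (5.31-fold) and Spred2 (5.19-fold), then Rasa2 (1.93-fold), with adjusted p no higher than 2.85e-07. Spry4 stood at 50.9 times T0 by reads, with a counting interval of 26.6 to 112. The median log2 fold change was 2.51 for the 9 and −0.10 for all tested genes.

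**Figure D3:**
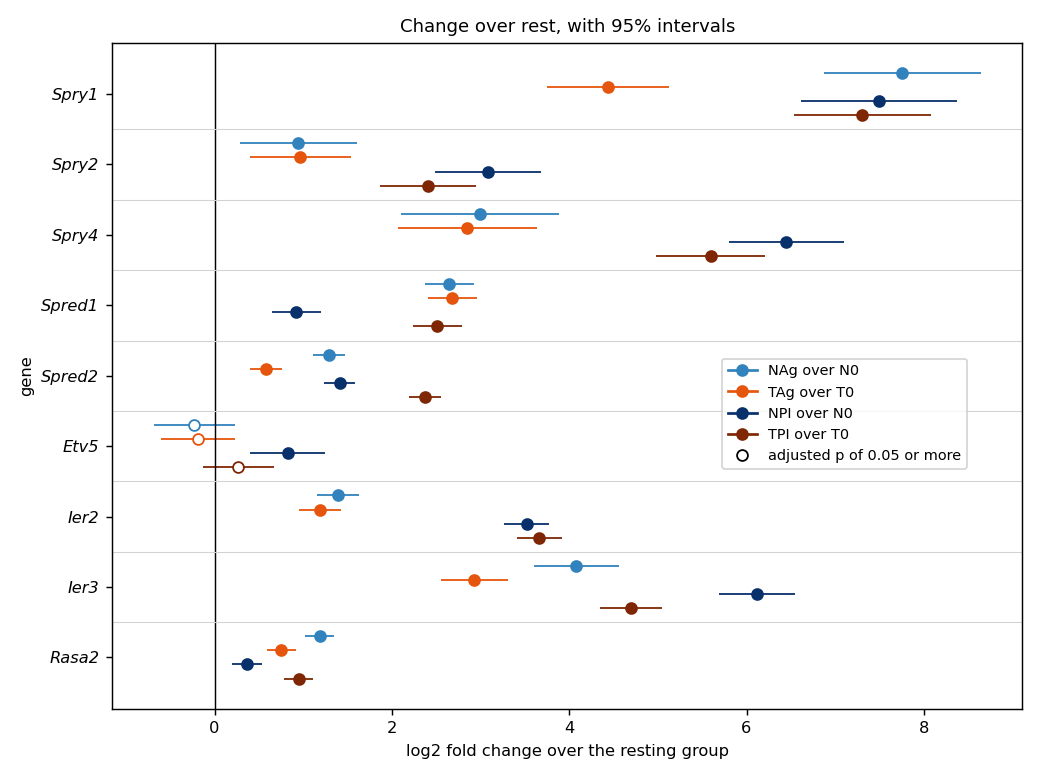
Log2 fold change over the resting group of the same cell state (x axis) for each gene (y axis) after Ag or PI. Bars are 95% intervals from the fit of all 18 libraries, 3 a group, and open points have an adjusted p of 0.05 or more. Spry1 shows 4.44 for TAg over T0 but 7.31 to 7.76 in the other 3 comparisons, and Spred1 shows 0.92 for NPI over N0 but 2.51 to 2.68 in the others.

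The second question was how tolerized cells differed from naive cells, first at rest. Spry1 was 10.9-fold higher in T0 than N0 (log2 3.45 ± 0.42, adjusted p = 0.000108) and Ier3 2.85-fold higher (1.51 ± 0.30, 0.000986). Spred2 fell by 0.39 ± 0.09 on the log2 scale (adjusted p = 0.00296), Ier2 by 0.37 ± 0.11 (0.025) and Rasa2 by 0.30 ± 0.08 (0.0107). These 2 higher and 3 lower stood beside 8.42% of all tested genes higher and 12% lower, and 6 of the 9 did not overlap between groups, as did 35% of all tested genes. Spry2 (0.89 ± 0.30, adjusted p = 0.0513) and Etv5 (0.57 ± 0.21, 0.0508) sat at the edge of the threshold. DESeq2 called Spry2 (0.90, adjusted p = 0.00963), and leaving out N0 replicate 1 brought in Spry2 (0.0441) and Etv5 (0.0222), and leaving out T0 replicate 3 Etv5 alone (0.71, 0.0222). With only these groups fitted Spry2 passed (0.96, 0.0327), but Spred2 (−0.31, 0.0892) and Ier2 (−0.30, 0.131) did not. With Y-linked expression as a covariate Ier2 did not pass (0.116) and Spred1 passed as lower (−0.63, 0.00139). Spred1 gave −0.34 ± 0.14 (0.0944) and passed without T0 replicate 2 (−0.45, 0.0445), while Spry4, with 9 reads against 6, had a ratio of 1.35 (0.429 to 4.61).

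T0 replicate 3, the T0 library without Y-linked reads, had the highest Spry1 of its group. Without the other T0 libraries and TAg replicate 3, the call of Ier3 (1.15, adjusted p = 0.153), Ier2 (−0.16, 0.552) and Rasa2 (−0.35, 0.0727) was lost, and Spred1 passed (−0.74, 0.00406). That fit left T0 with 1 library, assumed to vary as the other groups do, so the lost calls alone are no measure of a weaker difference. The estimates were smaller in size than with all libraries for Ier3 (1.51 with all) and Ier2 (−0.37), but not for Rasa2 (−0.30). Neutrophil markers were higher in T0 for 8 of 9 genes, as given above. When scores of erythroid and myeloid markers entered the fit, 0 of the 9 passed in edgeR, with 2 higher and 1 lower at an unadjusted p under 0.05. In that fit the log2 difference was 3.27 for Spry1 (adjusted p = 0.0817), −0.17 for Spred2 (0.768), 0.98 for Ier3 (0.271), −0.33 for Ier2 (0.672) and −0.26 for Rasa2 (0.574). Each of these estimates kept its sign and was smaller in size than without the scores. Neutrophil sums did not overlap between T0 and N0, so here too the lost calls alone are no measure of a weaker difference. Without N0 replicate 3, T0 replicate 1 or T0 replicate 2, Ier2 no longer passed (adjusted p = 0.0988 to 0.141).

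After Ag, the tolerized cells had less of 4 genes and more of 2. Spred2 showed the widest gap, at 531 ± 13.3 in TAg against 1136 ± 82.7 in NAg (mean normalized count ± SD, n = 3), a log2 difference of −1.10 ± 0.09 with adjusted p = 6.93e-10. Rasa2 was lower by −0.73 ± 0.08 (1.45e-07) and Ier2 by −0.57 ± 0.11 (0.000369). Spred1 passed narrowly as lower (−0.30 ± 0.12, 0.0494), and the call was lost in 5 of the 6 fits that left out a library (adjusted p = 0.0628 to 0.195). Spry2 was higher by 0.91 ± 0.27 (0.014) and Etv5 by 0.62 ± 0.22 (0.027). Without NAg replicate 2 neither passed (Spry2 0.068, Etv5 0.128), and Etv5 was also lost without NAg replicate 3 or TAg replicate 2 (0.131 and 0.0802), with only these groups fitted (0.067) and with Y-linked expression as a covariate (0.071). Spry2 was lost without the 3 T0 and TAg libraries with Y-linked reads (0.0585). With the marker scores as covariates both were lost (0.364 and 0.344), while the 4 lower genes still passed. Among all tested genes 20.9% were higher and 18.5% lower. Spry1 did not differ by the test (0.13 ± 0.27, adjusted p = 0.748, 95% interval −0.45 to 0.71), nor did Spry4 (0.27 ± 0.28, 0.484). Ier3 gave 0.36 ± 0.15 (0.053) and passed without NAg replicate 1 (0.0304) or TAg replicate 2 (0.0277).

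After PI, 4 genes were higher in tolerized cells and 0 lower, where 18.2% of all tested genes were higher and 19.7% lower. Spry1 averaged 53415 ± 7593 normalized counts in TPI against 5585 ± 156 in NPI, a 9.56-fold difference (log2 3.26 ± 0.29, adjusted p = 1.39e-06). Spred1 was 2.39-fold higher (1.25 ± 0.12, 1.37e-07) and Spred2 1.49-fold higher (0.58 ± 0.08, 3.61e-06). Rasa2 was 1.22-fold higher (0.29 ± 0.08, 0.00565), a call lost without NPI replicate 1 (0.20, 0.0574) and with the marker scores as covariates (0.33, 0.0708). Ier2 (−0.23 ± 0.11, 0.105), Ier3 (0.09 ± 0.12, 0.605), Spry2 (0.21 ± 0.23, 0.525) and Etv5 (0.01 ± 0.19, 0.974) did not pass. Spry4, at 138 ± 7.42 in TPI and 187 ± 10.7 in NPI, gave −0.43 ± 0.18 with adjusted p = 0.0578. When only these groups were fitted it passed as lower (−0.41, 0.00568), as did Ier2 (−0.21, 0.0301), and Spry4 also did with Y-linked expression as a covariate (−0.45, 0.0475). In this comparison 2 genes, Spry4 and Ier2, were lower at an unadjusted p under 0.05, and 1 in DESeq2. For the responses to Ag and PI, 0 genes were lower at an unadjusted p under 0.05 in edgeR or in DESeq2. All 6 libraries of this comparison had Y-linked reads, so sex did not differ between its groups.

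**Figure D4:**
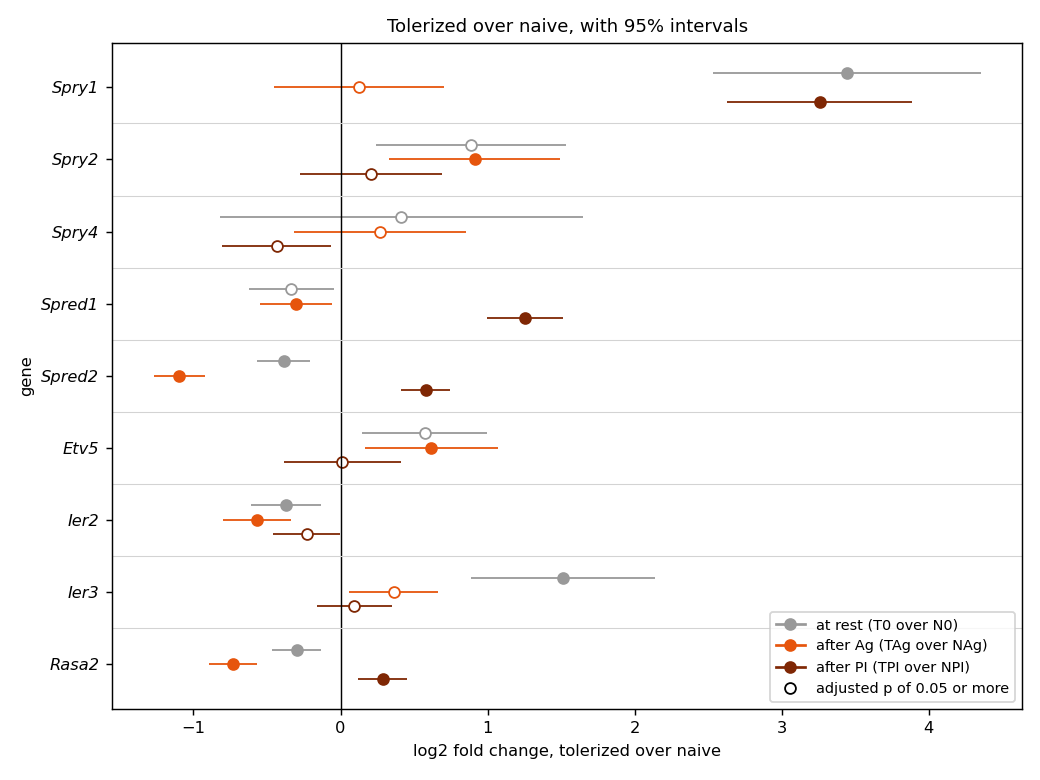
Log2 fold change of tolerized over naive cells (x axis) for each gene (y axis) at rest, after Ag and after PI. Bars are 95% intervals from the fit of all 18 libraries, 3 a group, and open points have an adjusted p of 0.05 or more. Spred2 lies at −1.10 after Ag and 0.58 after PI, Rasa2 at −0.73 and 0.29, and Spry1 at 3.45 at rest, 0.13 after Ag and 3.26 after PI.

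Whether the responses themselves differed between cell states was tested as an interaction, TAg over T0 against NAg over N0. For 4 genes the response to Ag was smaller in tolerized cells and for 0 larger, also at an unadjusted p under 0.05 and in DESeq2, beside 7.09% of all tested genes smaller and 14.6% larger. Spry1 differed by −3.32 ± 0.51 (adjusted p = 0.000427), its levels starting higher in T0 and ending alike. Spred2 differed by −0.71 ± 0.12 (0.000152), Rasa2 by −0.43 ± 0.11 (0.00701) and Ier3 by −1.15 ± 0.34 (0.0167). The call of Ier3 was lost without N0 replicate 2 or 3 or T0 replicate 2 (adjusted p = 0.0666 to 0.0812) and with the marker scores (0.0879). Without the 3 libraries with Y-linked reads, Ier3 (−0.95, 0.231) and Rasa2 (−0.37, 0.103) no longer passed. The Spred1 response was nearly the same in both states, with a difference of 0.03 ± 0.18 and a 95% interval of −0.35 to 0.41.

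For PI the same test found 3 genes with a larger response in tolerized cells and 1 with a smaller, beside 12.7% and 7.52% of all tested genes. Spred1 differed by 1.59 ± 0.18 (adjusted p = 4.27e-06), Spred2 by 0.97 ± 0.12 (2.96e-06) and Rasa2 by 0.58 ± 0.11 (0.000546). Ier3 differed by −1.42 ± 0.33 (0.00296): its PI levels were alike and its resting level higher in T0. Without the 3 libraries with Y-linked reads the Ier3 difference was −1.05 (adjusted p = 0.163). The Spry1 response did not differ by the test (−0.19 ± 0.52, 0.857), with a wide 95% interval of −1.32 to 0.95. Spred2 and Rasa2 were thus the members whose difference in response passed for both stimuli and in opposite directions. The Ag and PI interactions share N0 and T0, so they are not independent.

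The third comparison set the stimuli against each other within a cell state. In naive cells PI gave higher levels than Ag for 5 genes and lower for 2, beside 33.5% and 31% of all tested genes. Spry4 was 10.9-fold higher (log2 3.45 ± 0.23, adjusted p = 1.53e-12), Spry2 4.41-fold (1.62e-06), Ier2 4.39-fold (4.59e-13), Ier3 4.11-fold (2.5e-12) and Etv5 2.08-fold (0.000111). Spred1 was lower by −1.73 ± 0.12 (1.37e-10) and Rasa2 by −0.82 ± 0.08 (1.87e-09). Spry1 (−0.26 ± 0.27, 0.408) and Spred2 (0.12 ± 0.08, 0.214) did not pass. The Spry1 libraries of the 2 groups did not overlap, and a fit of these groups alone called it lower after PI (−0.33, 0.000333). Its sign turned with Y-linked expression as a covariate (0.20, 0.664), which cannot part sex from the stimulus in naive cells. In tolerized cells 7 genes were higher with PI than with Ag and 0 lower, beside 31.5% and 32.3% of all tested genes. DESeq2 gave the same counts, and at an unadjusted p under 0.05 both tools gave 8 higher, Etv5 being added, and 0 lower. Spry1 was 7.29-fold higher (2.87 ± 0.28, 8.87e-07), Spry4 6.71-fold (7.49e-11), Ier2 5.55-fold (6.4e-14), Spred2 3.46-fold (3.24e-15), Ier3 3.41-fold (2.28e-11) and Spry2 2.71-fold (6.02e-05). Rasa2, 1.14-fold higher (0.19 ± 0.08, 0.0358), lost the call in 4 of the 6 fits that left out a TAg or TPI library (0.0525 to 0.147) with Y-linked expression as a covariate (0.15, 0.203), with the marker scores (0.478) and without the 3 T0 and TAg libraries with Y-linked reads (0.0557). Spred1 gave −0.17 ± 0.12 (0.219) and Etv5 0.45 ± 0.20 (0.0522); with that covariate Spred1 passed as lower (−0.46, 0.000927), and Etv5 passed without TPI replicate 2 (0.53, 0.0435), with only these groups fitted (0.0196) and with DESeq2 size factors (0.0366). Route, culture and, in all libraries but TAg replicate 3, sex differed between Ag and PI cells together with the stimulus.

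Related genes that were not on the list help to place these changes. Spred3, the remaining SPRED gene, averaged 17.6 ± 7.11 normalized counts in N0, 64.7 ± 11.6 in NAg and 24.3 ± 9.07 in TAg. It rose with Ag in naive cells (log2 1.87) and not by the test in tolerized cells (0.46), and was lower in TAg than NAg by −1.42, as Spred2 was. Ier5, a relative of Ier2, went from 1352 ± 166 in N0 to 4639 ± 135 in NAg and 7655 ± 346 in NPI, and from 1296 ± 187 in T0 to 3985 ± 255 in TAg and 8945 ± 300.4 in TPI. The Etv5 relatives Etv1 and Etv4 were scarcely detected, with at most 9 and 4 reads in any library. Spry3 was not analysed here.

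A wider list of 61 genes of the Ras-ERK route was described by its counts, of which 57 were tested. Family relatives made up 6 of the 61 and 4 of the 57. After Ag 19 of the 57 rose and 21 fell in naive cells, and 20 rose and 18 fell in tolerized cells, shares near those of all tested genes (32.1% and 33.4%, and 29.9% and 29.8%). After PI 26 rose and 16 fell in naive cells, and 27 rose and 15 fell in tolerized cells, beside 28.6% and 32.7%, and 32% and 36.3%, of all tested genes. Of the 7 exchange factor genes tested, whose products load Ras with GTP, 6 fell after Ag in naive and 4 in tolerized cells, and the rest did not pass. Rasgrp2 fell most, from 7539 ± 805 to 344 ± 60.4 normalized counts in naive cells (log2 −4.45 ± 0.18, adjusted p = 1.87e-12) and from 7319 ± 1305 to 587 ± 92.9 in tolerized cells (−3.64 ± 0.17, 1.91e-11). Of the 9 other Ras GAP genes 4 fell after Ag in either state, and 2 rose in naive and 1 in tolerized cells. Of all tested genes 33.4% fell and 32.1% rose in naive cells, and 29.8% and 29.9% in tolerized cells. With only 9 genes, these counts do not set Rasa2 apart from the other Ras GAP genes. Among 12 kinases and scaffolds, 5 rose and 5 fell in naive cells after Ag. Ksr1, a scaffold for RAF, MEK and ERK, was high after Ag (7984 ± 780.4 in NAg, 5808 ± 326 in TAg) and far lower after PI (780 ± 56.4 in NPI, 1273 ± 111 in TPI).

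Transcripts often used as readouts of ERK activity rose in 6 of 10 cases after Ag in either state and in 8 of 10 after PI in either state. Of all tested genes 32.1% rose after Ag in naive and 29.9% in tolerized cells, and 28.6% and 32% after PI. In each response 1 of the 10 fell, Dusp6 after Ag in naive cells (log2 −0.62, adjusted p = 0.0156) and Ccnd1 in the others. Fosl1, an AP-1 gene, rose most in all 4 responses, from 1.69 ± 0.606 in N0 to 147 ± 17.6 in NAg and 348 ± 42.3 in NPI, and from 1.20 ± 1.34 in T0 to 143 ± 8.75 in TAg and 674 ± 15.1 in TPI. Fos, another AP-1 gene, was much higher after PI than after Ag, at 112942 ± 5875 in NPI against 1729 ± 800.2 in NAg (log2 6.03 ± 0.32, adjusted p = 9.04e-10) and 74427 ± 3832 in TPI against 1415 ± 115 in TAg (5.72 ± 0.32, 1.58e-09). Dusp6, a phosphatase of ERK, was the pathway gene that stood highest in TAg over NAg, at 1638 ± 134 against 150.5 ± 31.1 (3.44 ± 0.19, 4.37e-09). Its response to Ag was larger in tolerized cells by 2.64 ± 0.27 (6.12e-06). Epha2, an ephrin receptor gene, went the other way, at 4.36 ± 2.12 in TAg against 57.4 ± 5.95 in NAg (−3.67 ± 0.51, 1.77e-05), and its response to Ag was smaller in tolerized cells by −4.25 ± 0.81 (0.00091). No gap between TAg and NAg among the 9 genes was as wide as either.

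In the resting comparison 6 of the 57 pathway genes were higher in T0 and 13 lower, beside 8.42% and 12% of all tested genes. Gab2, an adaptor gene, was the highest (1.15 ± 0.24, adjusted p = 0.00171) and Rasgrf2, an exchange factor gene, the lowest (−0.80 ± 0.17, 0.00148). In TAg over NAg 14 were higher and 13 lower, beside 20.9% and 18.5% of all tested genes, and in TPI over NPI 23 were higher and 10 lower, beside 18.2% and 19.7%. Dusp4, another MAP kinase phosphatase gene, led the latter at 6787 ± 590 in TPI against 2055 ± 90.0 in NPI (1.72 ± 0.14, 5.3e-08), and Rras2, a Ras-related gene, was the lowest (−1.33 ± 0.13, 2.42e-07). The response to Ag was larger in tolerized cells for 17 and smaller for 6, beside 14.6% and 7.09% of all tested genes, and that to PI larger for 19 and smaller for 4, beside 12.7% and 7.52%. Ptpn11, which encodes the phosphatase SHP2, led the PI interaction (1.32 ± 0.15, 2.5e-06), with 5443 ± 803 in TPI against 1743 ± 21.7 in NPI. Fos was the lowest there (−1.17 ± 0.37, adjusted p = 0.0426). Gab3, an adaptor gene, fell most with PI in tolerized cells (−1.77 ± 0.14, 3.05e-11) and Ccnd1, the cyclin D1 gene, in naive cells (−1.46 ± 0.40, 0.00597). Between stimuli, 30 were higher with PI than with Ag and 15 lower in naive cells, beside 33.5% and 31% of all tested genes, and 32 higher and 10 lower in tolerized cells, beside 31.5% and 32.3%.

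The genes whose group means ran most like each member were sought among 11554 expressed genes, by the root mean square difference of centered log2 group means over the 6 groups. Spry1, with the widest range over the groups (10.8 log2 units), lay farthest from its nearest genes. These were Mir155 (0.944), the cytokine gene Il21 (1.02) and the AP-1 gene Fosl2 (1.12). Spry4 was nearest to Tnfaip3 (0.323), Ifrd1 (0.346) and Gm17024 (0.349), and Ier3 to Irg1 (0.326), the chemokine gene Cxcl2 (0.365) and Tagap (0.366). Spry2 ran with Optn (0.158), Rgs1 (0.181) and Pik3ap1 (0.213), and Ier2 with the clock gene Per1 (0.196), Erf (0.201) and Mir1938 (0.204). Spred1 was nearest to SNORD91 (0.110), Pwp1 (0.148) and Zfp593 (0.150), and Spred2 to Wnk1 (0.158), Med14 (0.164) and Fbxo34 (0.190). Etv5 ran with Zfp608 (0.125), Dhdh (0.138) and Arhgef2 (0.158), and Rasa2 with Ascc3 (0.0537), Gyk (0.0664) and Gm12715 (0.0837). No member was among the 3 nearest genes of another. Flat profiles have near neighbors by construction, since a small range leaves little room to differ. The distances were not scaled to range, so they cannot be compared between members of unlike range. Reads given to the short RNA genes may come from longer transcripts around them.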

How the data were processed

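The authors aligned paired-end reads to mouse build mm9 (NCBIM37) and deposited raw read counts per Ensembl gene, 1 file a library, without normalization. The submitters' processing notes name TopHat2 2.1.1, HTSeq 0.9.1, DESeq2 1.18 and edgeR 3.24. How overlapping genes and strand were handled is not given in the sources used here. Symbols and exon lengths came from an annotation of the same build, matched by identifier for 37205 of 37991 genes.

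Counts were analyzed with R 4.3.3 and edgeR 4.0.16. Libraries were scaled by TMM, and genes with a mean normalized count of at least 3 in 1 or more groups were kept (17240). All 18 libraries entered 1 fit with the 6 group means as terms (robust quasi-likelihood F test). A prior count of 2 entered only the log2 CPM behind the marker scores, the nearest genes and the correlations of replicates. A gene was called at a Benjamini-Hochberg adjusted p under 0.05 over all tested genes. Every unnamed p after a fold change is such an adjusted p, and ± after a log2 fold change is its SE. The SE was worked out from the fold change and its F statistic, and 95% intervals of fold changes from that SE. Normalized counts are TMM-scaled to the geometric mean effective library size. Counting intervals (95%) are exact binomial intervals of the ratio of summed reads and cover counting error only. Named pathway genes were the highest and lowest called in each comparison with a mean of at least 50 in the higher group, plus the family relatives Spred3, Etv1, Etv4 and Ier5. DESeq2 1.42.0 and other settings were run as alternatives, and 2 scores, the mean log2 CPM of erythroid and of neutrophil and macrophage markers, or the log2 Y-linked CPM entered further fits. Members and lists were chosen with earlier results of these data known. Promoters, 250 bases long, came from RefSeq.

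Replicate numbers did not pair the libraries: deviations of same-numbered libraries correlated between −0.229 and 0.135, and 5 of 45 pairs were over 0.1. No library pair of a group agreed within sampling noise (chi-square per degree of freedom 3.04 to 13.1).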

Additional observations from a re-analysis of the deposited data

Results flagged for a closer look

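The test of the difference in response between cell states passed for 4 genes with Ag and 4 with PI. Of all tested genes the response to Ag was larger in tolerized cells for 14.6% and smaller for 7.09%, and that to PI larger for 12.7% and smaller for 7.52%. The response to Ag was smaller in tolerized than in naive cells for Spry1 (log2 difference −3.32, adjusted p = 0.000427 in edgeR), Spred2 (−0.71, 0.000152), Ier3 (−1.15, 0.0167) and Rasa2 (−0.43, 0.00701). The response to PI was larger in tolerized cells for Spred1 (1.59, 4.27e-06), Spred2 (0.97, 2.96e-06) and Rasa2 (0.58, 0.000546), and smaller for Ier3 (−1.42, 0.00296). For Spry1 and Ier3 the resting level differed between cell states by more than the level after Ag did. For Spred2 and Rasa2 the stimulated levels themselves parted, downward after Ag and upward after PI. The cause of these differences was not tested. Groups of 3 were not tested for outlying values of single genes.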

How the results depend on the processing

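Of 1457 fold changes of the 9 genes under the alternatives, 1344 kept their direction and side of the threshold, 54 lost and 23 gained the call, and 36 changed sign. Of the last, 0 had been called. The replicate block, which pairs libraries by number alone, gave 8, 8, 9 and 8 changed genes for NAg over N0, TAg over T0, NPI over N0 and TPI over T0, and 6, 5, 4, 4, 4, 7 and 8 for the other 7 comparisons in the order of the text. With it Etv5 passed in T0 over N0 (adjusted p = 0.0421) and TPI over TAg (0.0454), and Spred1 no longer in TAg over NAg (0.0698). The last was also lost with no filter on low counts (0.0731).

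With marker scores, and with the limit given above for that fit, T0 over N0 held 0 changed genes. Without the 3 T0 and TAg libraries with Y-linked reads, an alternative chosen after seeing the data, it held 3 and the Ag interaction 2. The study's limits (DESeq2 and edgeR, at least 2-fold, a mean above 50) left 4 genes in TAg over T0. They left 1 in T0 over N0, 1 in TAg over NAg, 2 in TPI over NPI and 2 in either interaction. A fold limit and a count limit lower such numbers by construction. The count limit removed Ier3 in T0 over N0 (2.85-fold, mean 18.3 in T0) and Spry4 in TAg over T0 (7.22-fold, mean 20.3 in TAg). With 1 library left out, TAg over NAg held 3 to 6 genes, the 3 without NAg replicate 2.

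Signs that changed belonged to small, uncalled differences, and the cause was not tested. In the Ag interaction DESeq2 gave −0.022 for Spry2 and −0.012 for Spred1, and its size factors in edgeR gave −0.0216 and −0.0127. Marker scores gave −0.26 for Spry2, −0.30 for Etv5 and −0.33 for Ier3 in TPI over NPI, 0.0036 for Spry1 and −0.20 for Spred2 in NPI over NAg, and 0.088 for Spred1 in TPI over TAg. Y-linked expression gave −0.00057 for Etv5 in TPI over NPI, and 0.20 for Spry1 and −0.089 for Spred2 in NPI over NAg. Without the 3 libraries with Y-linked reads, Etv5 was 0.14 in TAg over T0 and Ier2 −0.054 in the PI interaction. With 1 library left out, the Ag interaction ran from −0.19 to 0.23 for Spry2, −0.54 to 0.47 for Spry4, −0.11 to 0.16 for Spred1 and −0.12 to 0.36 for Etv5. The PI interaction of Spry1 ran from −0.61 to 0.38, Etv5 in TPI over NPI from −0.026 to 0.089, and Spry4 in T0 over N0 from −0.18 to 0.82.

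DESeq2 size factors moved the levels by −1.89% to 1.99%. With 3 libraries a group and, for Spry4 at rest, 1 to 5 reads a library, small differences were not detectable at this depth. Spry4 in T0 over N0 was not tested when only those groups were fitted.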
